A study of Mus musculus with 13 samples.

Results

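The tumour suppressor p53 is a transcription factor that is held at a low level by its own target MDM2, and a set of feedback and stress regulators surrounds it. The genes examined here are p53 itself (Trp53), its negative regulators Mdm2, Mdm4, Ccng1 and Ppm1d, and the antiproliferative or stress-responsive targets Btg2, Sesn1, Sesn2, Trp53inp1 and Plk2. They were selected by symbol for their known roles, with earlier results of these data known, and all 10 were found among the 32544 gene symbols of the count table. All 10 also passed the filter on low counts, which left 12496 genes for testing.

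Lung RNA was measured by Quant-seq, which reads the 3′ end of polyadenylated transcripts, in 7 mouse samples kept at 21% oxygen (normoxia) and 6 kept at 80% oxygen (hyperoxia), each for 5 days. Both groups were wild-type, and every sample is listed at an age of 7 weeks. The study's methods name male C57BL/6J mice that were 7 weeks old when purchased, and give an older age range for the mice in all experiments. The lungs were perfused and frozen whole, so a lower level can mean fewer cells of a type or less RNA per cell, and these cannot be told apart. Libraries were numbered as replicates within a condition, and nothing in the labels ties a number to an animal, so p-values measure the spread between these samples.

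When DNA is damaged or ribosome assembly is disturbed, p53 escapes MDM2, accumulates and activates genes that arrest the cell cycle, repair DNA or kill the cell. Several of these genes turn p53 off again: MDM2 is the ubiquitin ligase that marks it for degradation, MDM4 masks its activation domain, cyclin G1 recruits a phosphatase to MDM2, and the phosphatase WIP1 (Ppm1d) removes activating phosphates. p53 is controlled mainly at the level of the protein, so its transcript need not follow its activity.

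In hyperoxia 7 of the 10 genes passed the test at an adjusted p under 0.05, 6 of them higher (Mdm2, Ccng1, Btg2, Sesn2, Trp53inp1 and Plk2) and 1 lower (Sesn1). Among all genes tested 22.6% passed, 11.8% as higher and 10.8% as lower. Of the 10 genes, 2 (Ccng1 and Sesn2) also had an absolute log2 fold change over 1.5, which 3.91% of all genes tested did. In 3 of them (Mdm2, Ccng1 and Sesn2) the values of the groups did not overlap, which was so for 10.8% of all genes tested. Trp53, Mdm4 and Ppm1d did not pass. The median log2 fold change of the 10 genes was 0.71, beside -0.03 over all genes tested.

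**Figure D1:**
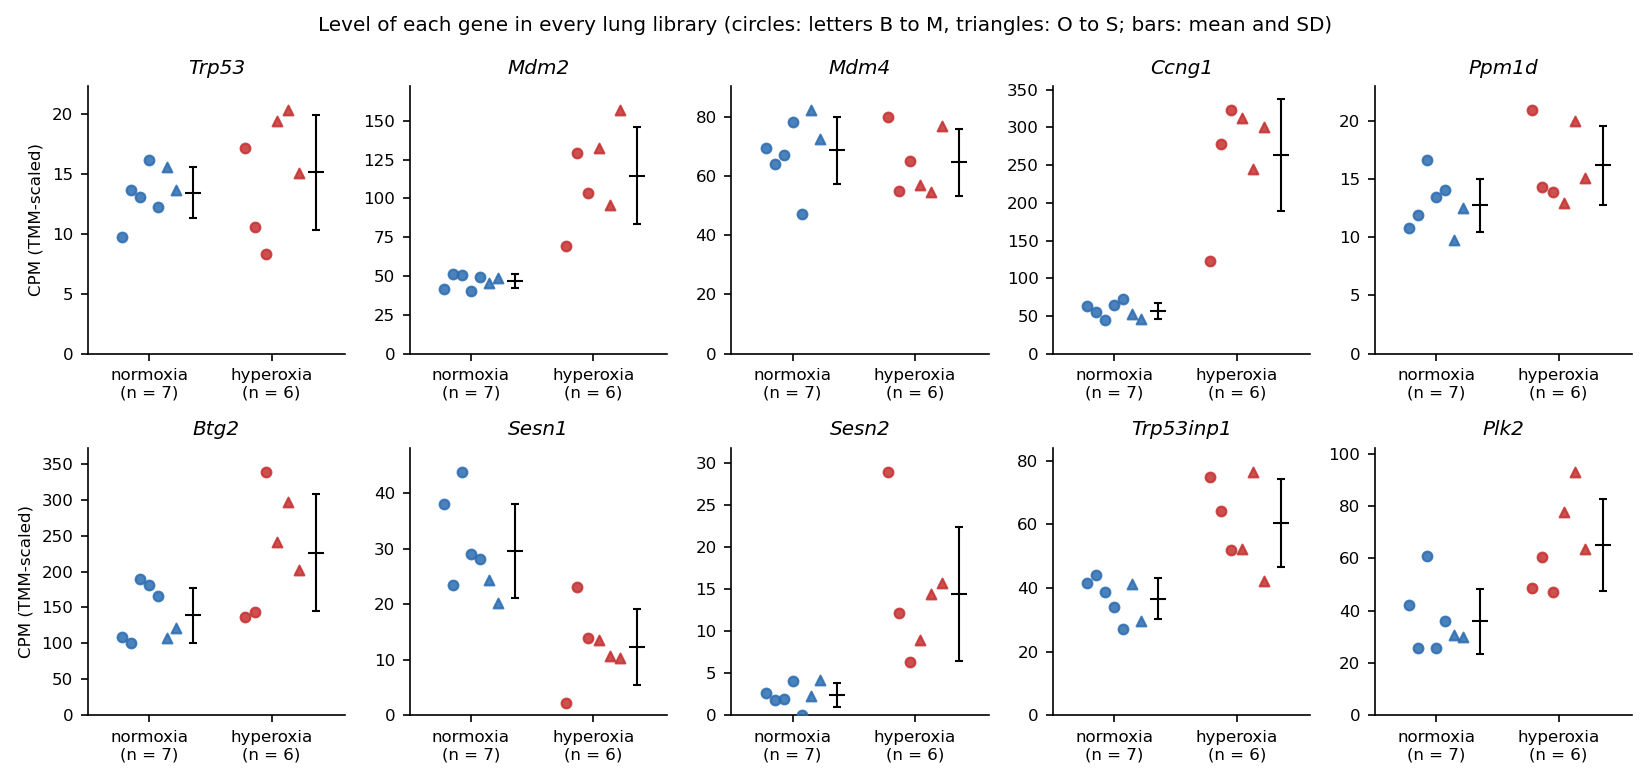
Level of each of the 10 genes in every library, in CPM (counts scaled to the size of the library) after TMM scaling on a linear axis that starts at 0, with the mean and SD of each group beside the points and the marker shape giving the letter set of the library. Ccng1, Mdm2 and Sesn2 show no overlap between the groups, Sesn1 lies lower in hyperoxia, and Trp53 and Mdm4 overlap.

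Total counts ran from 1607111 to 3387736 in normoxia and from 2029006 to 4540288 in hyperoxia, and the counts carry no molecular identifiers, so a floor of 3 counts covers counting error only. Hyperoxia replicate 1 stood apart from the rest: the mean Pearson correlation of its log2 CPM with the other libraries was 0.779, against 0.886 to 0.919 for each of the other 12. Without it, 7 of the 10 genes were called and 2 passed the fold threshold, in a fit that called 28.5% of all genes tested. The library names carry letters from B to M and from O to S, with no letter N. The B to M set holds 5 normoxic and 3 hyperoxic libraries and the O to S set 2 and 3, and nothing says whether the sets are batches. The lung markers Sftpc, Scgb1a1 and Pecam1 were detected in every library, at no less than 5066, 13450 and 1760 CPM in normoxia. In hyperoxia they ran from 32.7 to 2915, from 162 to 9239 and from 392 to 3873 CPM, so their lowest levels were far under their highest. The markers Foxj1, Cldn5 and Pdpn went down to 2.14, 5.36 and 10.7 CPM in hyperoxia, while Cdh5 stayed at 194 CPM or more. A level of 2.14 CPM stands for 4 counts in hyperoxia replicate 1. With library size in place of TMM scaling, 42.8% of the genes called were higher, against 52.3% with it.

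Because p53 binds DNA at a consensus element, the promoters of these genes were read for it. The p53 decamer searched is made of 3 purines, C, 2 positions of A or T, G and 3 pyrimidines, which reads the same on both strands. RefSeq promoters of the GRCm38.p6 assembly, from 250 bases before to 50 after the transcript start, were matched for 9 of the 10 genes, 11 promoters in all, and Trp53inp1 had no entry. A decamer without a mismatch stood in 5 of the 11 promoters (45.5%), those of Trp53, Mdm2, Ccng1, Ppm1d and the second Sesn1 start. It stood in 8.36% of all 32851 promoters and in 7.10% of the promoters of genes tested. Of 31 promoters of the other p53 targets described later, 25.8% held it. With 1 mismatch allowed it stood in 63.6% of the 11 promoters and in 70.0% of all. A pair of decamers at most 13 bases apart occurred in 0 of the 11 promoters, in 1 of the 31 promoters of the other p53 targets (3.23%) and in 0.0731% of all. The genes were picked as p53 targets and regulators, and a match is not a bound site. The windows of 30 bases are shown for the called genes that hold the decamer, which is in capitals, 5′ to 3′ on the strand of the gene.
Mdm2, chr10:117710925-117710954, minus strand: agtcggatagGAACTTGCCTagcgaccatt
Ccng1, chr11:40755452-40755481, minus strand: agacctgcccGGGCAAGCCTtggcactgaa
Sesn1, chr10:41887256-41887285, plus strand: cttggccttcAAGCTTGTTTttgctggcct
The decamer lies 186 to 177 bases before the start of Mdm2, 185 to 176 before that of Ccng1 and 173 to 164 before the second start of Sesn1. Of these 3 genes Mdm2 and Ccng1 were higher and Sesn1 was lower in hyperoxia, while Sesn2, with the largest log2 fold change of the 10, holds no such letters in its promoter. The called genes Btg2 and Plk2 hold none either. Of the genes that did not pass, Trp53 and Ppm1d hold the decamer and Mdm4 does not. Bases outside these promoters were not searched.

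The transcript of p53 itself did not pass the test. Trp53 (chr11:69580359-69591873, plus strand; these and the following gene positions are from GENCODE on GRCm38) had a lowest, median and highest level of 9.71, 13.6 and 16.1 CPM in normoxia. In hyperoxia these were 8.34, 16.1 and 20.3 CPM. Of the 6 hyperoxic libraries 3 lay above every normoxic one and 1 below all of them, so the groups overlapped. The means were 13.4 ± 2.14 CPM (SD, n = 7) and 15.1 ± 4.82 CPM (SD, n = 6). This gave a log2 fold change of 0.17 with a standard error (SE) of 0.23 (adjusted p = 0.641), and its 95% interval ran from -0.28 to 0.62. Its counts were 20 to 72 per library.

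Mdm2, the ubiquitin ligase that closes the main feedback loop, more than doubled. Its lowest, median and highest levels were 40.4, 48.8 and 51.0 CPM in normoxia. In hyperoxia they were 69.2, 116 and 157 CPM. Every hyperoxic library was above every normoxic one, with hyperoxia replicate 1 the lowest of the 6. The normoxic libraries lay close together (46.8 ± 4.35 CPM, SD, n = 7) and the hyperoxic ones spread more widely (114.5 ± 31.3 CPM, SD, n = 6). Its log2 fold change was 1.30 (SE 0.17, 2.45-fold, adjusted p = 6.9e-05), and an exact two-sided permutation test of its log2 CPM gave p = 0.000583, the smallest that 7 against 6 libraries allow. Mdm2 (chr10:117688875-117710758, minus strand) was higher within both letter sets, by a log2 fold change of 1.16 in B to M (adjusted p = 0.0125) and 1.43 in O to S (adjusted p = 0.00346).

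Mdm4, the relative of MDM2 that binds p53 without degrading it on its own, stayed in the same range. Its levels ran from 47.2 to 82.2 CPM around a median of 69.4 in normoxia and from 54.7 to 79.9 CPM around 60.9 in hyperoxia. None of the 6 hyperoxic libraries lay outside the normoxic range. Its log2 fold change was -0.09 (SE 0.15, adjusted p = 0.718), and the 95% interval from -0.39 to 0.21 does not hold a change of the size seen for Mdm2. Mdm4 (chr1:132959484-133030561, minus strand) has a processed pseudogene, Gm29257, on its opposite strand.

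The balance of these regulators within a library does not depend on how libraries are scaled, so 6 ratios of gene counts were compared (log2, with 0.5 added to each count, exact two-sided permutation tests adjusted over the 6). Mdm2 to Trp53 was 1.80 ± 0.27 in normoxia (SD, n = 7) and 2.93 ± 0.70 in hyperoxia (SD, n = 6). It was 1.13 higher in hyperoxia (adjusted p = 0.00175, exact permutation), and the groups overlapped through hyperoxia replicate 1, at 1.99. Mdm2 to Mdm4 turned from -0.54 ± 0.35 (SD, n = 7) to 0.79 ± 0.54 (SD, n = 6), a difference of 1.33 (adjusted p = 0.00175, exact permutation). It was below 0 in 6 of 7 normoxic libraries and above 0 in 5 of 6 hyperoxic ones. The exceptions were normoxia replicate 5, at 0.07, and hyperoxia replicate 1, at -0.21. Mdm4 to Trp53 differed by -0.20 (adjusted p = 0.428, exact permutation), with opposite signs in the letter sets (0.18 in B to M and -0.62 in O to S).

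**Figure D2:**
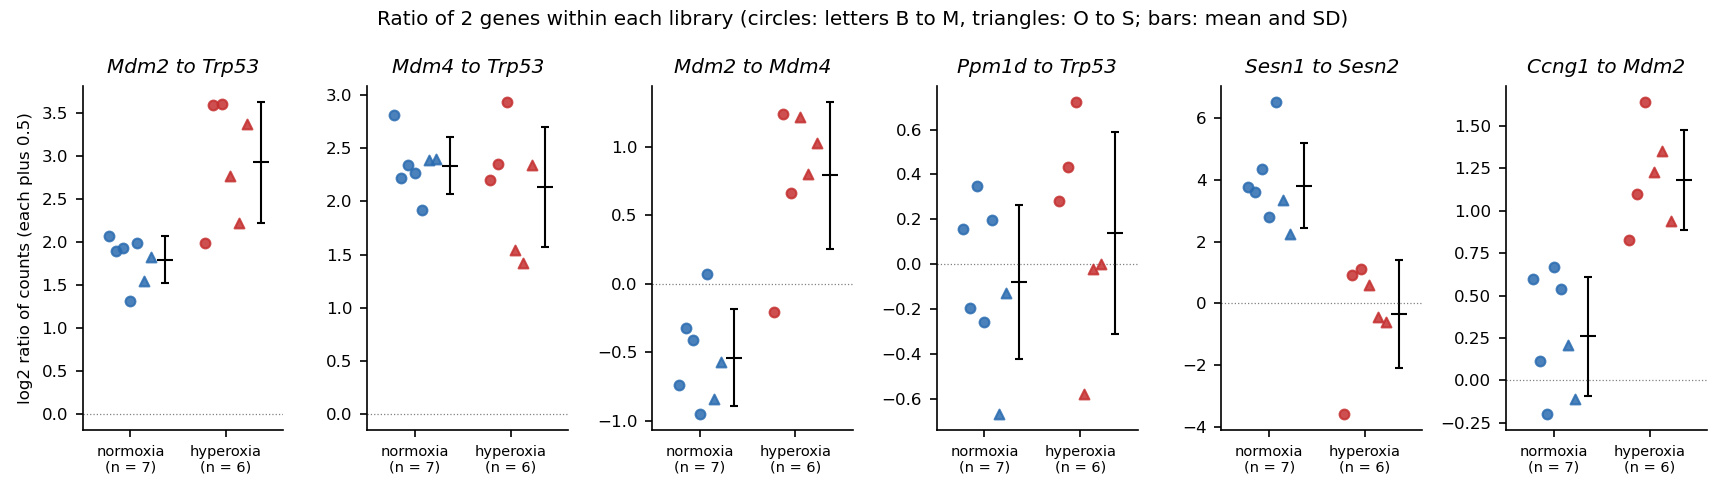
Log2 ratio of the counts of 2 genes in the same library, each count plus 0.5, by condition, with the mean and SD of each group beside the points and the marker shape giving the letter set. The Sesn1 to Sesn2 ratio of every hyperoxic library lies under every normoxic one, and the Ccng1 to Mdm2 ratio of every hyperoxic library lies above.

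Ccng1, which encodes cyclin G1 and is among the most constant p53 targets across tissues, had the smallest adjusted p of the 10 genes. Its lowest, median and highest levels were 43.8, 55.2 and 72.3 CPM in normoxia. In hyperoxia they were 123, 290 and 323 CPM. The groups did not overlap, and hyperoxia replicate 1 was again the lowest of its group, well under the next library at 244 CPM. The means were 56.6 ± 10.4 CPM (SD, n = 7) and 263.6 ± 74.4 CPM (SD, n = 6). The difference corresponds to a log2 fold change of 2.22 (SE 0.21, 4.67-fold, adjusted p = 2.6e-06), which put Ccng1 (chr11:40748552-40755311, minus strand) at rank 44 of the 12496 genes by p. Within the letter sets it was 2.06 and 2.53.

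Ccng1 rose more than Mdm2 in the same libraries. The log2 ratio of Ccng1 to Mdm2 was 0.26 ± 0.35 in normoxia (SD, n = 7) and 1.18 ± 0.30 in hyperoxia (SD, n = 6), without overlap. The difference was 0.92 (adjusted p = 0.00175, exact permutation), and it was 0.85 in B to M and 1.12 in O to S. Hyperoxia replicate 1 had the lowest ratio of its group, at 0.83, and the highest normoxic ratio was 0.67. The genes tested whose log2 CPM followed that of Ccng1 most closely over the 13 libraries were Eif1 (Pearson r = 0.990), Esd (0.978), Mcl1 (0.976), Col5a2 (0.975) and Vmp1 (0.971). Each of these genes was also called as higher in hyperoxia, so the correlations include the difference between the groups. The part of hyperoxia replicate 1 in them was not tested.

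Ppm1d, which encodes the phosphatase WIP1, was measured at 9.76, 12.5 and 16.7 CPM (lowest, median and highest) in normoxia. In hyperoxia the values were 12.9, 14.7 and 20.9 CPM. All 6 hyperoxic libraries were above the normoxic median and 2 were above every normoxic library. The log2 fold change of 0.34 (SE 0.20, 95% interval from -0.04 to 0.72) did not pass the test (adjusted p = 0.231). The exact permutation test of its log2 CPM alone gave an unadjusted p of 0.0490 with TMM scaling and 0.104 with library size only. The ratio of Ppm1d (chr11:85311244-85347066, plus strand) to Trp53 differed by 0.22 (adjusted p = 0.404, exact permutation). Its counts were 23 to 69 per library.

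The sestrins, stress proteins that restrain mTORC1 and support the peroxiredoxin system, moved in opposite directions. Sesn2 had 0 to 14 counts in the normoxic libraries and 18 to 72 in the hyperoxic ones. Its lowest, median and highest levels were 0, 2.23 and 4.16 CPM in normoxia and 6.25, 13.2 and 28.9 CPM in hyperoxia. The groups did not overlap, the library with 0 counts was normoxia replicate 5, which was also the shallowest, and the highest was hyperoxia replicate 1. On the log2 scale the fold change was 2.49 (SE 0.43, 5.60-fold, adjusted p = 7.1e-04). Without hyperoxia replicate 1 it was 2.19. Sesn2 lies at chr4:132492032-132510501 on the minus strand and overlaps Gm12981 on the same strand.

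Sesn1 fell. Its lowest, median and highest levels were 20.2, 28.2 and 43.8 CPM in normoxia. In hyperoxia they were 2.14, 12.1 and 23.1 CPM. Of the 6 hyperoxic libraries 5 were under every normoxic one, the exception being replicate 2, and replicate 1 was far under the others with 4 counts. The means were 29.6 ± 8.48 CPM (SD, n = 7) and 12.2 ± 6.78 CPM (SD, n = 6). On the log2 scale the change was -1.25 (SE 0.33, 0.419-fold, adjusted p = 0.0131), and without hyperoxia replicate 1 it was -1.04 (adjusted p = 0.00438). Within B to M the value of -1.26 did not pass (adjusted p = 0.153), and within O to S that of -0.97 did (adjusted p = 0.0291). Sesn1 (chr10:41809935-41908424, plus strand) overlaps 9930024M15Rik on the same strand.

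The ratio of Sesn1 to Sesn2 showed the widest separation of the 6 ratios. It was 3.81 ± 1.39 in normoxia (SD, n = 7) and -0.33 ± 1.75 in hyperoxia (SD, n = 6), without overlap, a difference of -4.15 (adjusted p = 0.00175, exact permutation). The lowest normoxic ratio was 2.24 and the highest hyperoxic one 1.13. The extremes were normoxia replicate 5, at 6.54 with its 0 Sesn2 counts, and hyperoxia replicate 1, at -3.60. The difference was -4.73 within B to M and -2.95 within O to S. Without hyperoxia replicate 1 it was -3.49, and with 2 added to each count it was -3.63.

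Sesn2 is also induced by ATF4, the transcription factor of the integrated stress response. Of 11 ATF4 targets 8 were tested and 7 were higher, beside 11.8% of all genes tested. Their median log2 fold change was 1.33, against -0.03 over all genes. Their summed level was 109 to 135 CPM in normoxia and 264 to 325 CPM in hyperoxia, without overlap. Its part in the Sesn2 result was not tested.

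The antiproliferative targets Btg2, Plk2 and Trp53inp1 rose, each with a log2 fold change under 1. Trp53inp1, a promoter of p53 phosphorylation and of autophagy, was measured at 27.0, 38.6 and 44.0 CPM (lowest, median and highest) in normoxia. In hyperoxia the values were 42.2, 58.2 and 76.6 CPM. Of the 6 hyperoxic libraries 5 were above every normoxic one, and replicate 6 fell inside the normoxic range. The log2 fold change was 0.72 (SE 0.17, 1.64-fold, adjusted p = 0.00726). Within the letter sets of Trp53inp1 (chr4:11156431-11174379, plus strand) the values of 0.83 and 0.67 missed the threshold (adjusted p = 0.0508 in B to M and 0.118 in O to S).

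Plk2, a polo-like kinase of centriole duplication and the stress response, was at 25.6, 30.7 and 60.8 CPM in normoxia. In hyperoxia it was at 47.3, 62.1 and 93.2 CPM. One normoxic library, replicate 3, overlapped the hyperoxic range, and 3 of the 6 hyperoxic libraries were above it. The means of 35.9 ± 12.5 CPM (SD, n = 7) and 65.2 ± 17.6 CPM (SD, n = 6) gave a log2 fold change of 0.87 (SE 0.22, 1.82-fold, adjusted p = 0.0108). Plk2 (chr13:110395046-110400844, plus strand) had a log2 fold change of 0.50 within B to M (adjusted p = 0.323) and 1.36 within O to S (adjusted p = 0.00367).

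Btg2, an antiproliferative partner of the mRNA deadenylation machinery, was the called gene nearest to the threshold. Its lowest, median and highest levels were 100.3, 121 and 189 CPM in normoxia and 137, 222 and 339 CPM in hyperoxia. Of the 6 hyperoxic libraries 4 were above every normoxic one, while replicates 1 and 2 lay inside the normoxic range. The log2 fold change was 0.71 (SE 0.23, 1.63-fold, adjusted p = 0.0400), and the exact permutation test of its log2 CPM gave an unadjusted p of 0.0291. The call of Btg2 (chr1:134075170-134079120, minus strand) was lost with library size only (adjusted p = 0.0637), with limma on the deposited values (adjusted p = 0.0857), with the letter set as a term (adjusted p = 0.0553), with at least 10 counts in every library (adjusted p = 0.0509), and without any 1 of normoxia replicates 1, 2, 6 and 7 or hyperoxia replicates 3, 4 and 5 (adjusted p from 0.0609 to 0.0840). It did not pass within B to M (0.52, adjusted p = 0.370) and passed within O to S (1.11, adjusted p = 0.0064).

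Btg2 and Plk2 also belong to the genes that respond within minutes to growth factors and tissue handling. Of 11 immediate early genes 10 were tested and 3 were higher (Atf3, Fos and Egr1, with log2 fold changes of 2.34, 1.94 and 1.80), beside 11.8% of all genes tested. Their median was 0.46, against -0.03 over all genes. Their summed level was 471 to 934 CPM in normoxia and 546 to 1122 CPM in hyperoxia, with overlap. Its part in the Btg2 and Plk2 results was not tested.

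**Figure D3:**
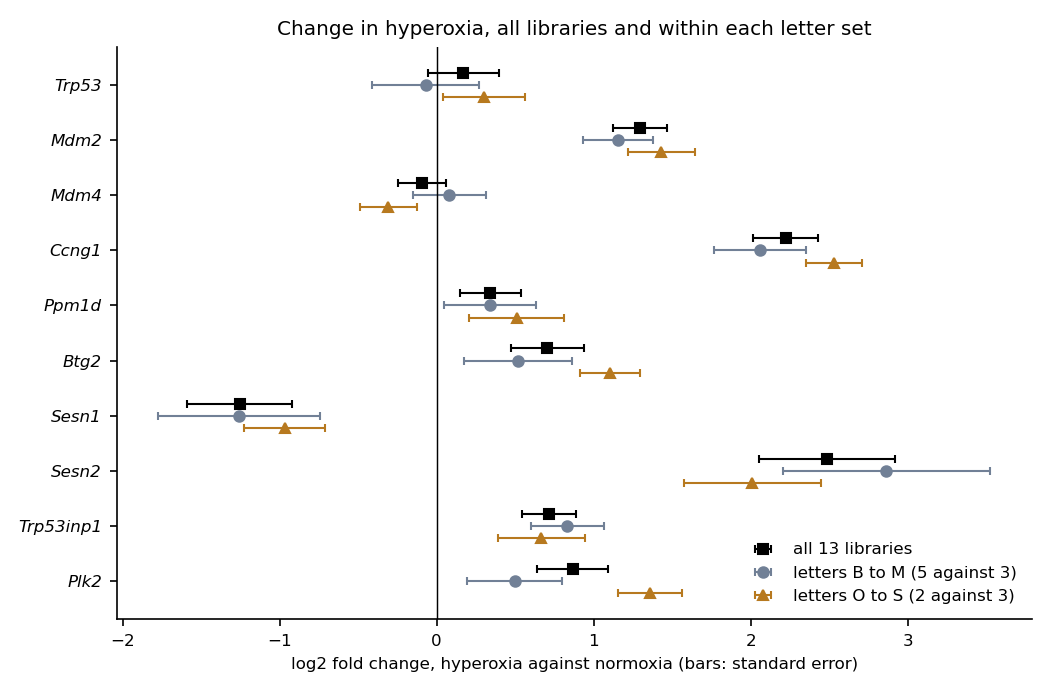
Log2 fold change of hyperoxia against normoxia for each gene, with its standard error as a bar, from all 13 libraries (squares) and from the libraries of letters B to M (circles) and O to S (triangles) fitted apart. The 7 called genes, which were called on these same libraries, kept their direction in both sets, and Trp53 and Mdm4 changed sign between them.

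Across the letter sets, 7 of 7 called genes moved the same way, while Trp53 (-0.07 and 0.30) and Mdm4 (0.08 and -0.31) did not. The calls were made on these same libraries, so agreement in sign is largely set by the call and is no replication. The share of all called genes that agree was not computed. The difference of the effect between the sets was tested with edgeR as an interaction on all genes. No gene of the 12496 passed at an adjusted p under 0.05 (0%), with 1158 (9.27%) at an unadjusted p under 0.05. None of the 10 genes was among these, the closest being Plk2 with a difference of 0.92 (O to S minus B to M, unadjusted p = 0.0525, adjusted p = 0.539).

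The 6 hyperoxic libraries differed in how many of the 6 higher genes set them apart. Replicates 4 and 5 were above every normoxic library for all 6 genes, replicates 3 and 6 for 5, and replicates 1 and 2 for 4. The 6 genes were called as higher on these same libraries, so high counts are built in. Hyperoxia replicate 1 held the lowest hyperoxic value of 4 genes (Mdm2, Ccng1, Btg2 and Sesn1) and the highest of 3 (Mdm4, Ppm1d and Sesn2).

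The regulators upstream of p53 were read next. Of 21 genes whose products act on p53 or MDM2, among them kinases, acetylases, ubiquitin enzymes and ribosomal proteins, 17 were tested, 5 were higher and 0 lower by edgeR, beside 11.8% higher and 10.8% lower over all genes tested, and the median log2 fold change was 0.17. With no adjustment 1 was lower at a p under 0.05, and DESeq2 and limma-voom also called 0 as lower. The 5 were Mybbp1a, a nucleolar protein that binds p53 (1.03), Rpl23 (0.73) and Rpl5 (0.54), ribosomal proteins that bind MDM2, Rchy1, a ubiquitin ligase for p53 (0.64), and Usp7, a deubiquitinase of MDM2 and p53 (0.45). Cop1 was read under its older symbol Rfwd2. Cdkn2a, which encodes the MDM2 inhibitor ARF, had 1 count in all 13 libraries, and Chek1, Dyrk2 and Kat5 were also too low to test.

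Among 30 other p53 targets 24 were tested, 10 were higher and 1 was lower, beside the same 11.8% and 10.8%, with a median log2 fold change of 0.65. The called genes with the smallest adjusted p were Cdkn1a, the inhibitor p21 (4.86), Zmat3, an RNA-binding protein (1.43), Aen, a nuclease (2.84), Polk, a translesion polymerase (1.44), and Eda2r, a receptor of the TNF receptor family, which was near the floor in normoxia (0.974 ± 1.16 CPM, SD, n = 7, against 25.1 ± 8.81 CPM, SD, n = 6). The gene that fell was Dram1, a lysosomal protein of autophagy (-1.28, adjusted p = 6.4e-04). Gdf15, named here after its values were seen, did not pass the filter on low counts: it had 0 or 1 count in each normoxic library, 41 to 214 counts in hyperoxia replicates 2 to 6, and 1 count in hyperoxia replicate 1. Bbc3, Ddb2, Fdxr, Pidd1 and Polh were too low to test.

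**Figure D4:**
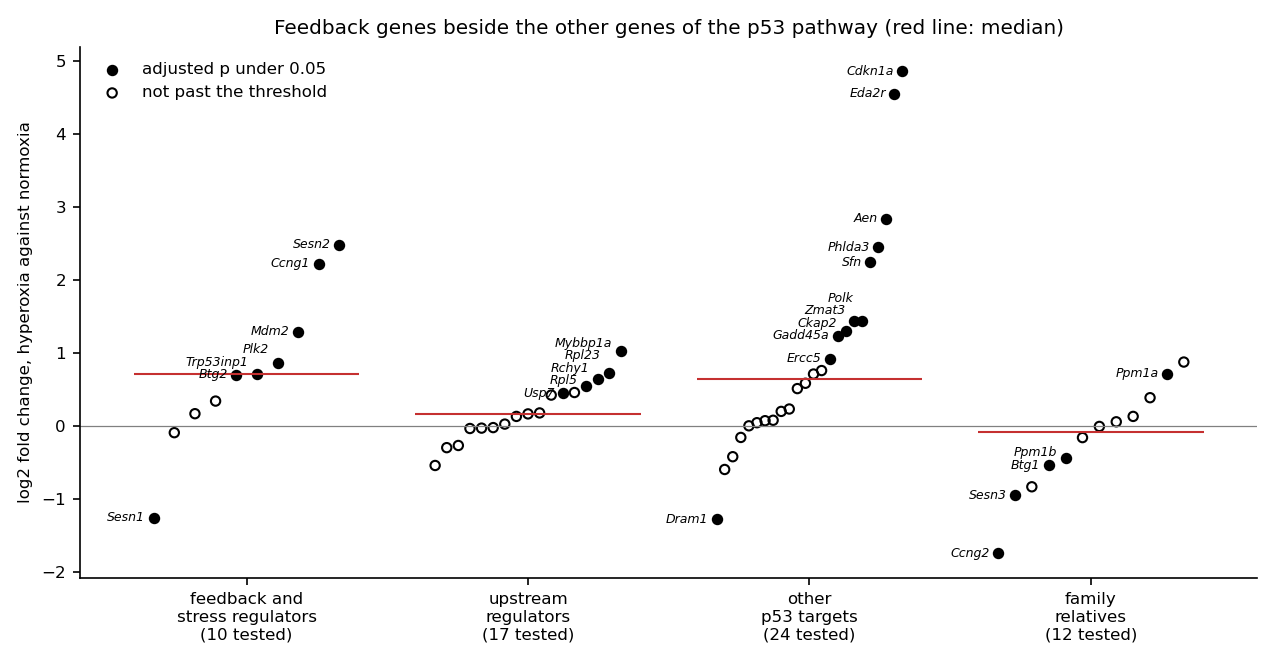
Log2 fold change of hyperoxia against normoxia for every tested gene of 4 groups, ordered by value within a group, with filled points for an adjusted p under 0.05 and a red line at the median of the group. The medians are 0.71 for the feedback and stress regulators, 0.17 for the upstream regulators, 0.65 for the other p53 targets and -0.08 for the family relatives.

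Most of these genes belong to small families with other members. Of 17 relatives 12 were tested, 1 was higher and 4 were lower, beside 11.8% and 10.8% over all genes tested. Their median log2 fold change was -0.08. Ccng2, the relative of Ccng1 that is induced by FOXO factors, fell by 1.75 on the log2 scale (28.5 ± 8.86 CPM, SD, n = 7, against 8.40 ± 4.44 CPM, SD, n = 6, adjusted p = 0.00188), without overlap. Sesn3, a sestrin that is likewise a FOXO target, fell by 0.95 (42.5 ± 7.26 against 22.1 ± 5.57 CPM, adjusted p = 0.00171), without overlap. Btg1, a relative of Btg2, fell by 0.53 (adjusted p = 0.0318), and Ppm1b, a phosphatase of the same family as Ppm1d, fell by 0.43 (adjusted p = 0.0200). The only one called as higher was Ppm1a, another phosphatase of that family (0.72, adjusted p = 0.00118). Trp63 and Trp73, the p53 paralogs, and Btg4, Plk1 and Plk5 were too low to test.

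Markers of lung cell types differed between the groups as well, and their counts stand beside 11.8% higher and 10.8% lower over all genes tested. Alveolar type 2 cell markers were lower in 4 of 5 (summed level 12070 to 22660 CPM in normoxia and 3094 to 6684 in hyperoxia), and B cell markers in 4 of 4 (110 to 156 and 29.2 to 67.5 CPM). Of the type 1, airway and endothelial markers 1 each was lower (of 5, 3 and 5 tested), and of the fibroblast markers 1 of 4, Pdgfra, was higher. Of the alveolar macrophage markers 1 of 4 was higher and 1 lower. The 1 T cell marker tested was lower, and 0 of 3 neutrophil and 0 of 2 red blood cell markers passed with edgeR, none of them at an unadjusted p under 0.05, while limma-voom called 1 red blood cell marker. Tcf21, Cd3e and Hba-a1, markers of fibroblasts, T cells and red blood cells, did not exceed 4.29 CPM in any library. Proliferating cell markers, of which 0 of 5 passed with edgeR, 2 at an unadjusted p under 0.05 and 1 with DESeq2 or limma-voom, summed to 76.2 to 118 CPM in normoxia and 43.1 to 87.4 in hyperoxia. The part of these shifts in the levels of Sesn1 or of the 6 higher genes was not tested.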

How the data were processed

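Lung RNA of 7 normoxic and 6 hyperoxic samples was prepared with a Lexogen QuantSeq 3′ kit. The authors pseudoaligned the reads with kallisto and deposited whole-number counts per gene symbol, without normalization. They also deposited log10 of CPM plus 1, which was recomputed from the counts to within 8.9e-16. The submitters' processing notes name mm10, kallisto and limma 3.54.2. Groups and replicate numbers came from the sample titles, and 0 columns were left unmapped. Every pair of libraries of a group (36 in all) differed by more than sampling noise.

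Counts were tested with edgeR 4.0.16 (TMM, filterByExpr, glmQLFTest) in R 4.3.3, with p-values adjusted by Benjamini-Hochberg over 12496 genes. An effect was called at an adjusted p under 0.05. CPM values are TMM-scaled. The log2 CPM values of the exact tests use a prior count of 2, and those tests ran over 1716 assignments of the libraries. The SE of an edgeR log2 fold change was worked back from its test, as the absolute log2 fold change over the square root of the F statistic. The 95% intervals are the log2 fold change with a normal multiple of this SE, which makes no allowance for the small number of libraries. Alternatives were DESeq2 1.42.0, limma-voom, limma 3.58.1 on the deposited log10 values turned into log2, scaling by library size only, every gene with a count, a minimum of 10 counts in all libraries, terms for the letter set or the replicate number (replicate block), the letter sets fitted apart, and 13 fits that each left out 1 library. The fits were tested on simulated data. The genes and lists were chosen with earlier results of these data known. All 10 genes are described, and from each list at most the 5 called genes with the smallest adjusted p are named, or every called one for the relatives. Dram1 and Gdf15 were named besides, after their values were seen. One gene was left out of the list of other p53 targets and its counts, and is not reported here.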

Additional observations from a re-analysis of the deposited data

Results flagged for a closer look

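In 34 groups of values (the 10 genes, 6 ratios and the total count, in each condition), the gap of the most extreme library to its nearest neighbour was divided by the range of the group, and 2 exceeded Dixon's 95% critical value, where chance alone gives about 1 in 20. The log2 ratio of Sesn1 to Sesn2 was lowest in hyperoxia replicate 1, with a gap of 0.632 of the range. That library held 4 counts of Sesn1 and 54 of Sesn2. The total count of normoxia replicate 5 was the lowest of its group, with a gap of 0.612 of the range, and that library held 0 counts of Sesn2.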

How the results depend on the processing

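Mdm2, Ccng1 and Sesn2 kept their direction and their call under every alternative that could be fitted, and Sesn1, Trp53inp1, Plk2 and Btg2 kept their direction. Of 228 values of a gene under an alternative, 207 kept direction and call, 19 lost the call (12 of them for Btg2) and 2 turned: within the letters B to M, Trp53 was at -0.070 and Mdm4 at 0.081. Of the 10 genes, 4 were called with at least 10 counts in every library (where Sesn1 and Sesn2 are not tested and 1 gene passed the fold threshold), where 27.7% of all genes were called. Within B to M 3 were called, beside 8.8% of all genes, and within O to S 6, beside 21.3%. The cause was not tested. With limma on the deposited values the median of all genes shifted by -0.13, and 38.8% of its calls were higher.

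Replicate numbers did not pair the libraries (correlations of the deviations of same-numbered libraries from their group means ran from -0.33 to 0.27, with 0 of 6 closest to their own number). With a replicate block 4 of the 10 genes, 9 of the other p53 genes (against 16) and 1344 of all genes (against 2819) were called, and Sesn1, Trp53inp1 and Plk2 missed the threshold (adjusted p = 0.0601, 0.0779 and 0.0837). Under the block the 4 ratios that had passed missed the threshold, where 6 pairs allow no exact p under 0.0312: Mdm2 to Trp53 (1.14, adjusted p = 0.0938), Mdm2 to Mdm4 (1.33, 0.0625), Sesn1 to Sesn2 (-4.41, 0.0625) and Ccng1 to Mdm2 (0.86, 0.0625).

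With 1 library left out, the log2 fold change ran from 1.20 to 1.42 for Mdm2, 2.17 to 2.39 for Ccng1, 2.19 to 2.69 for Sesn2, -1.49 to -1.04 for Sesn1, 0.75 to 1.07 for Plk2 and 0.58 to 0.84 for Btg2. The lowest counts per library were 4 for Sesn1, 0 for Sesn2, 20 for Trp53 and 23 for Ppm1d, and the part of depth in their errors was not tested.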
